A study of Mus musculus with 48 samples.

Results

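The comparison described here set cardiomyocytes with a C3H nucleus against cardiomyocytes with a C57 nucleus while both carried C57 mitochondria. It used 12 of the 48 RNA-seq libraries of the series, chosen by their titles alone: the 6 libraries of C3Hn:C57mt, a mitochondrial-nuclear exchange (MNX) genotype that joins the C3H/HeN nuclear genome to the C57BL/6J mitochondrial genome, and the 6 libraries of wild-type C57BL/6J, written C57n:C57mt. All 12 libraries carried the label of sham surgery at day 3. They shared the C57 mitochondrial genome, so the labelled difference between the groups was the nuclear genome, together with everything else that separates an exchange line from a wild-type strain. The labels used here gave no age and did not say whether a library came from 1 animal. The hearts had been digested with collagenase, and atria and right ventricle were discarded. The same nuclear contrast with C3H mitochondria (6 libraries of C3Hn:C3Hmt, the wild-type C3H/HeN, and 6 of C57n:C3Hmt) and 6 sham libraries of the wild-type strains from another set of titles (3 C3H_wt_sham and 3 C57_wt_sham) served for comparison, and neither shared a library with the main contrast.

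MNX mice are made by moving the pronuclei of a fertilized egg of one strain into the enucleated egg of another, so that the offspring carry the nuclear genes of the first strain and inherit the mitochondria of the second through the egg. Nearly all proteins of the mitochondrion, and all those of the contractile apparatus, are encoded in the nucleus, so a change of nucleus replaces alleles across the whole heart muscle programme and leaves the few genes of the mitochondrial DNA in place. Inbred strains such as C3H and C57 differ at many regulatory variants, at the major histocompatibility complex (MHC), whose haplotype differs between these strains, and at known strain-specific lesions such as the deletion in Nnt of C57BL/6J.

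The 12 libraries held 15.97 to 25.97 M counts over 30743 gene rows. Levels are given as CPM (read counts scaled to library size with TMM factors), and differences as log2 fold changes of C3Hn:C57mt over C57n:C57mt with their standard errors from edgeR's quasi-likelihood fit of 24 libraries, 6 in each group. The genotype labels were checked on Kcnj14, which the earlier results of these data had marked as strain-dependent: it lay at 100.4 to 150.4 CPM (median 114) in C3Hn:C57mt, near the 97.8 to 129 CPM (median 121) of wild-type C3H. In the 3 sham libraries of the other set that carry the same label C3Hn:C57mt it lay at 0.144 to 0.486 CPM, on the side of their wild-type C57 partners (0.585 to 0.797 CPM), and 0 of 12977 genes passed the threshold between those 2 groups of 3, with 1064 (8.20%) at an unadjusted p below 0.05 in edgeR and 0 passing in DESeq2. Those libraries go against their label and were not used for any direction here. Each title also carries a code of L and a digit whose meaning the labels do not state: all 6 C57n:C57mt libraries had L8, while 4 of the C3Hn:C57mt libraries had L2 and 2 had L3. This code and the genotype cannot be told apart within the 12 libraries. The lists of cardiomyocyte markers summed to 70259 to 85774 CPM in C3Hn:C57mt and 61436 to 76332 CPM in C57n:C57mt. Rn45s, the ribosomal RNA precursor, also moved with the group, with 4349 to 6599 CPM (median 5843) in C3Hn:C57mt and 1990.2 to 4041 CPM (median 3435) in C57n:C57mt, and scaling without it and the 6 most abundant features left 4208 genes past the threshold and 136 of 136 named genes on their side of it. Its relation to the results beyond scaling was not tested.

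Of 13395 genes tested, 4272 (31.9%) passed an adjusted p of 0.05, of which 2124 (15.9%) were higher and 2148 (16.0%) lower with the C3H nucleus. A log2 fold change of at least 1 in size was reached by 1130 of them (8.44%), 417 higher and 713 lower. In 1944 genes (14.5%) the 6 libraries of one group all lay beyond the 6 of the other and the test was passed. In bulk RNA of this kind, fewer cells of a type and less RNA per cell cannot be told apart. With the L code as a covariate over the 24 libraries 1075 genes (8.03%) passed (600 higher, 475 lower), and 995 of the 4272 genes were among them. In that fit the step from L8 to L2 was estimated only within C57n:C3Hmt, from 2 libraries of L8 and 4 of L2. The 6 most abundant features took 50.5% and 48.1% of the counts in those 2, against 36.2% to 37.7% in the 4. Calls lost and signs changed with the covariate thus rest on few libraries of another genotype. When the 4 C3Hn:C57mt libraries of code L2 were set against the 4 C57n:C3Hmt libraries of the same code, where nucleus and mitochondria both differ, 3892 genes (30.1%) passed, and 2310 of the 4069 genes called above and tested there passed in the same direction. The sign was kept by 4061 of the 4272 genes (95.1%) with the covariate and by 3802 of the 4069 (93.4%) within code L2. Both fits reuse libraries of the main contrast.

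The genes that stood highest with the C3H nucleus encoded channels, contractile proteins and actin regulators. Kcnj14, an inward rectifier potassium channel, had 100.4 to 150.4 CPM (median 114) in C3Hn:C57mt and 1.02 to 1.94 CPM (median 1.51) in C57n:C57mt. Every C3Hn:C57mt library exceeded every C57n:C57mt library, and the log2 fold change was 6.33 ± 0.15 (adjusted p = 5.7e-21). Myh7, the slow beta-myosin heavy chain that mouse ventricle largely replaces with the alpha isoform after birth, had 1962 to 2290.3 CPM (median 2164) in C3Hn:C57mt and 35.6 to 69.5 CPM (median 50.0) in C57n:C57mt. The groups were again far apart, at 5.37 ± 0.23 (adjusted p = 5.3e-16). Baiap2l1, which bends membranes and bundles actin, had 161 to 219 CPM (median 185) in C3Hn:C57mt and 8.31 to 11.1 CPM (median 10.5) in C57n:C57mt, a log2 fold change of 4.20 ± 0.10. Fmn1, a formin that nucleates actin filaments, had 35.7 to 55.3 CPM (median 46.8) in C3Hn:C57mt and 1.11 to 1.89 CPM (median 1.62) in C57n:C57mt, a log2 fold change of 4.90 ± 0.15. Neither pair of groups overlapped.

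Adamts13, the protease that cleaves von Willebrand factor, had 55.2 to 103 CPM (median 82.6) in C3Hn:C57mt and 5.15 to 10.2 CPM (median 7.34) in C57n:C57mt, a log2 fold change of 3.42 ± 0.20. Ephb1, an ephrin receptor kinase, had 28.1 to 31.8 CPM (median 29.4) in C3Hn:C57mt and 1.49 to 3.99 CPM (median 2.92) in C57n:C57mt, a log2 fold change of 3.41 ± 0.14. Myl1, a myosin light chain of fast skeletal and embryonic muscle, had 65.3 to 89.4 CPM (median 77.4) in C3Hn:C57mt and 5.88 to 12.4 CPM (median 7.85) in C57n:C57mt, a log2 fold change of 3.22 ± 0.17. With Myh7 and Acta1 it is 1 of 3 genes among the 12 leading higher ones whose products are contractile proteins better known from other muscle or from the fetal heart. Acta1, the skeletal alpha-actin, had 501 to 872 CPM (median 710.6) in C3Hn:C57mt and 45.2 to 262 CPM (median 153) in C57n:C57mt, a log2 fold change of 2.04 ± 0.31. The remaining 4 were Wdfy1, a phosphoinositide-binding endosomal protein (2.82 ± 0.12), Pygl, the liver form of glycogen phosphorylase (2.76 ± 0.16), Chm, a Rab escort protein (2.30 ± 0.14), and Wdr92 (2.03 ± 0.28). None of the 12 overlapped between the groups, which the rule that named them required. All 12 also passed in the same direction with C3H mitochondria and with the L code as a covariate, and 11 passed between the wild-type sham strains, where Acta1 did not (log2 fold change 0.70, adjusted p = 0.43).

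The genes that stood lowest were more mixed. Pttg1, securin, which inhibits separase until anaphase, had 1.25 to 2.38 CPM (median 1.78) in C3Hn:C57mt and 31.5 to 58.9 CPM (median 37.2) in C57n:C57mt. No library overlapped, and the log2 fold change was -4.50 ± 0.17 (adjusted p = 1.2e-16). Lgals4, a galactoside-binding lectin, had 3.11 to 5.88 CPM (median 4.74) in C3Hn:C57mt and 26.3 to 69.4 CPM (median 47.4) in C57n:C57mt, a log2 fold change of -3.40 ± 0.23. Cyfip2, a subunit of the WAVE actin-regulatory complex, had 30.7 to 41.6 CPM (median 35.3) in C3Hn:C57mt and 136 to 272 CPM (median 217) in C57n:C57mt, a log2 fold change of -2.57 ± 0.14. Il15, a cytokine for T and natural killer cells, had 3.09 to 4.73 CPM (median 4.12) in C3Hn:C57mt and 14.7 to 24.5 CPM (median 19.4) in C57n:C57mt, a log2 fold change of -2.26 ± 0.12. Mgst1, a membrane-bound glutathione transferase (-2.29 ± 0.19), and Emilin2, an elastic fibre glycoprotein (-2.27 ± 0.17), completed the 6 that were also lower with C3H mitochondria.

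The other 6 leading lower genes did not pass with C3H mitochondria: Msln, Upk3b, Gpm6a, Igfbp6, C3 and Rnase4. Msln, mesothelin, had 4.19 to 8.11 CPM (median 5.59) in C3Hn:C57mt and 9.16 to 88.2 CPM (median 23.8) in C57n:C57mt, and Upk3b, a uroplakin of mesothelium, had 5.38 to 10.4 CPM (median 7.74) in C3Hn:C57mt and 11.6 to 73.0 CPM (median 25.5) in C57n:C57mt. Their C57n:C57mt libraries spread widely, while the C3Hn:C57mt libraries stayed within a narrow low range and did not overlap with them. Log2 fold changes were -2.66 ± 0.45 for Msln and -2.22 ± 0.40 for Upk3b, against -0.42 ± 0.43 and -0.05 ± 0.39 with C3H mitochondria. With the L code as a covariate Msln (adjusted p = 0.073), Upk3b (0.12), Gpm6a (0.062) and Igfbp6 (0.064) no longer passed. The summed level of 5 mesothelial markers, which include Msln and Upk3b, moved with them, at 15.1 to 25.2 CPM in C3Hn:C57mt and 28.2 to 208 CPM in C57n:C57mt, and the part of that in the other genes was not tested.

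**Figure D1:**
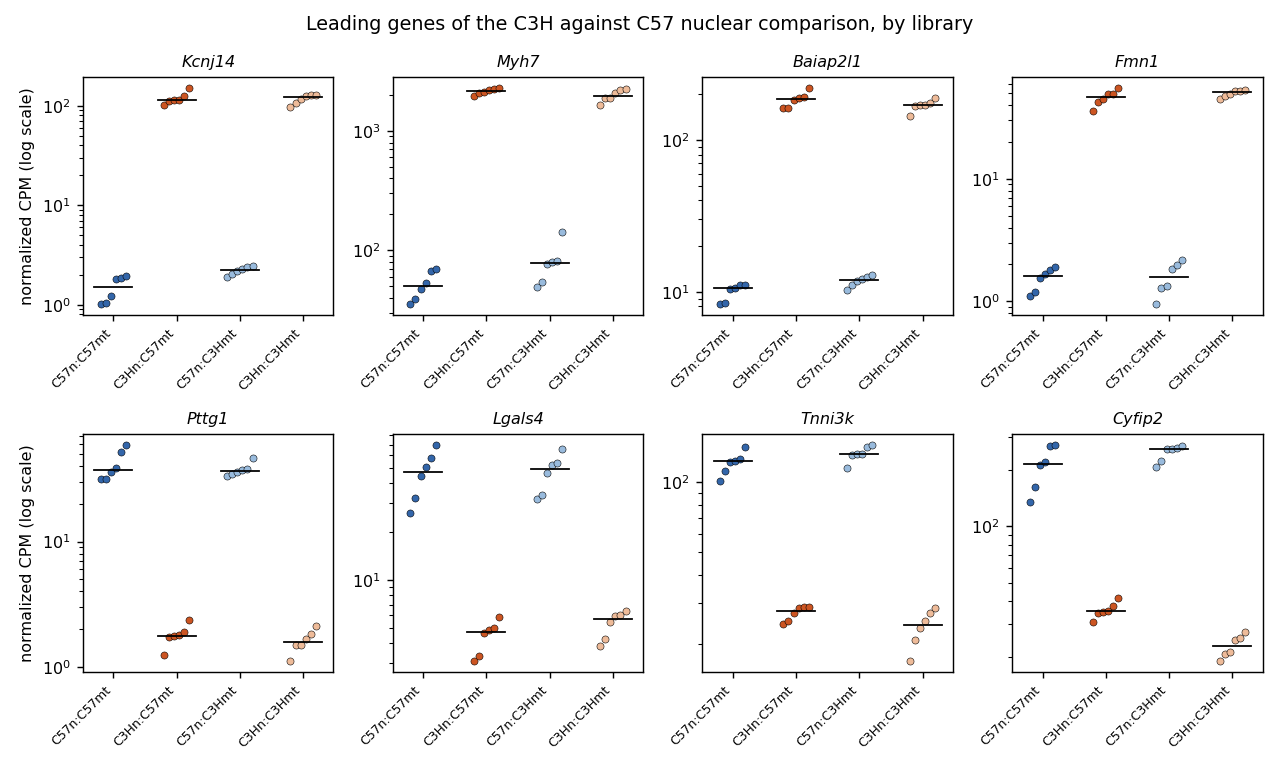
Normalized CPM on a log axis for 8 genes in the 24 libraries of 4 genotypes. Each point is 1 library and each bar the median of 6. In the top row both C3Hn genotypes lie above both C57n genotypes, and in the bottom row below them, for example Kcnj14 at a median of 114 CPM in C3Hn:C57mt and 1.51 CPM in C57n:C57mt.

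Genes of the contractile apparatus were more often higher than lower. The sarcomere and Z-disc list had 19 of 37 tested members higher (51.4%, against 15.9% of all genes) and 3 lower, with a median log2 fold change of 0.32 where the median of all genes was 0.01. The mean log2 CPM of the cardiomyocyte markers, some of them in this list, was higher by 0.24. It did not pass (exact 2-sided permutation test, p = 0.030, adjusted p = 0.078 over 12 marker lists). Its part in this list and in the glucose and TCA lists below was not tested. Mybpc3, the cardiac myosin-binding protein C of the thick filament, had 4763 to 6143 CPM (median 5219) in C3Hn:C57mt and 2654 to 3583 CPM (median 3485) in C57n:C57mt. Its groups did not overlap, and the log2 fold change was 0.67 ± 0.11 (adjusted p = 5.8e-05). Pdlim5, a Z-disc scaffold, had 556 to 792 CPM (median 709.9) in C3Hn:C57mt and 372 to 458 CPM (median 432) in C57n:C57mt, a log2 fold change of 0.72 ± 0.09, and Pdlim3, a PDZ and LIM protein of the same structure, had 9.75 to 13.7 CPM (median 10.6) in C3Hn:C57mt and 4.33 to 5.53 CPM (median 4.87) in C57n:C57mt, a log2 fold change of 1.16 ± 0.11. Both pairs of groups were separate. Tnnc1, cardiac troponin C, had 1609 to 2146 CPM (median 1804) in C3Hn:C57mt and 823 to 1736 CPM (median 1092) in C57n:C57mt (0.58 ± 0.16), and Tcap, which caps titin at the Z-disc, had 829 to 2055 CPM (median 1129) in C3Hn:C57mt and 302 to 1013 CPM (median 772) in C57n:C57mt (0.93 ± 0.26). In both genes the highest C57n:C57mt libraries reached into the range of C3Hn:C57mt. Nrap, an actin-anchoring protein of the myofibril ends, had 922 to 1114 CPM (median 1035) in C3Hn:C57mt and 475 to 641 CPM (median 590.5) in C57n:C57mt without overlap (0.85 ± 0.11).

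The 3 members of the sarcomere list that were lower were Tnni3k, Tpm1 and Myom3 (-0.47 ± 0.17). Tnni3k, a cardiac kinase that binds troponin I, had 24.3 to 29.0 CPM (median 27.9) in C3Hn:C57mt and 102 to 142 CPM (median 123) in C57n:C57mt. All C3Hn:C57mt libraries lay below all C57n:C57mt libraries, at a log2 fold change of -2.16 ± 0.10 (adjusted p = 9.8e-15). Tpm1, alpha-tropomyosin, had 2909.8 to 3704 CPM (median 3464) in C3Hn:C57mt and 2370.2 to 7580.3 CPM (median 6122) in C57n:C57mt, so that the lowest C57n:C57mt library fell below the C3Hn:C57mt range (-0.79 ± 0.18, adjusted p = 0.001). Myh6, the adult alpha-myosin heavy chain, had 27972 to 34846 CPM (median 31656) in C3Hn:C57mt and 20468 to 32328 CPM (median 30796) in C57n:C57mt, and its log2 fold change of 0.16 ± 0.15 did not pass (adjusted p = 0.44). Among sarcomere genes the count depended on the setting: with C3H mitochondria 4 members were higher and 7 lower, and with the L code as a covariate 4 were higher and 1 lower.

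The list of cardiac stress and fetal genes had 13 of 24 tested members higher (54.2%) and 0 lower, with a median of 0.56. With C3H mitochondria 11 were higher and 1 lower, and 10 were higher in both. Fhl1, a LIM protein of the I-band, had 162 to 216 CPM (median 185) in C3Hn:C57mt and 56.99 to 90.0 CPM (median 83.3) in C57n:C57mt, a separation without overlap (1.24 ± 0.10). Ankrd1, a stretch-responsive ankyrin repeat protein, had 1375 to 2435 CPM (median 1571) in C3Hn:C57mt and 261 to 739 CPM (median 624) in C57n:C57mt, and here too the groups were separate (1.58 ± 0.23). Hspb7, a small heat shock protein of heart muscle, had 2149 to 3043 CPM (median 2420.4) in C3Hn:C57mt and 1044 to 1746 CPM (median 1427) in C57n:C57mt (0.82 ± 0.12). Of the natriuretic peptides, the hormones that a stretched heart releases, Nppa had 48.2 to 91.3 CPM (median 63.4) in C3Hn:C57mt and 10.8 to 74.1 CPM (median 28.8) in C57n:C57mt. Its groups overlapped, at 1.00 ± 0.31 (adjusted p = 0.015), and library 1 of C57n:C57mt stood above the other 5 of its group. Nppb, at 111 to 236 CPM (median 172) in C3Hn:C57mt and 100.3 to 226 CPM (median 154) in C57n:C57mt, did not pass (0.10 ± 0.22, adjusted p = 0.76). The atrial markers, which include Nppa, had 2 of 3 tested members higher and summed to 51.9 to 131 CPM in C3Hn:C57mt and 14.3 to 85.9 CPM in C57n:C57mt, and their part in the list was not tested.

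**Figure D2:**
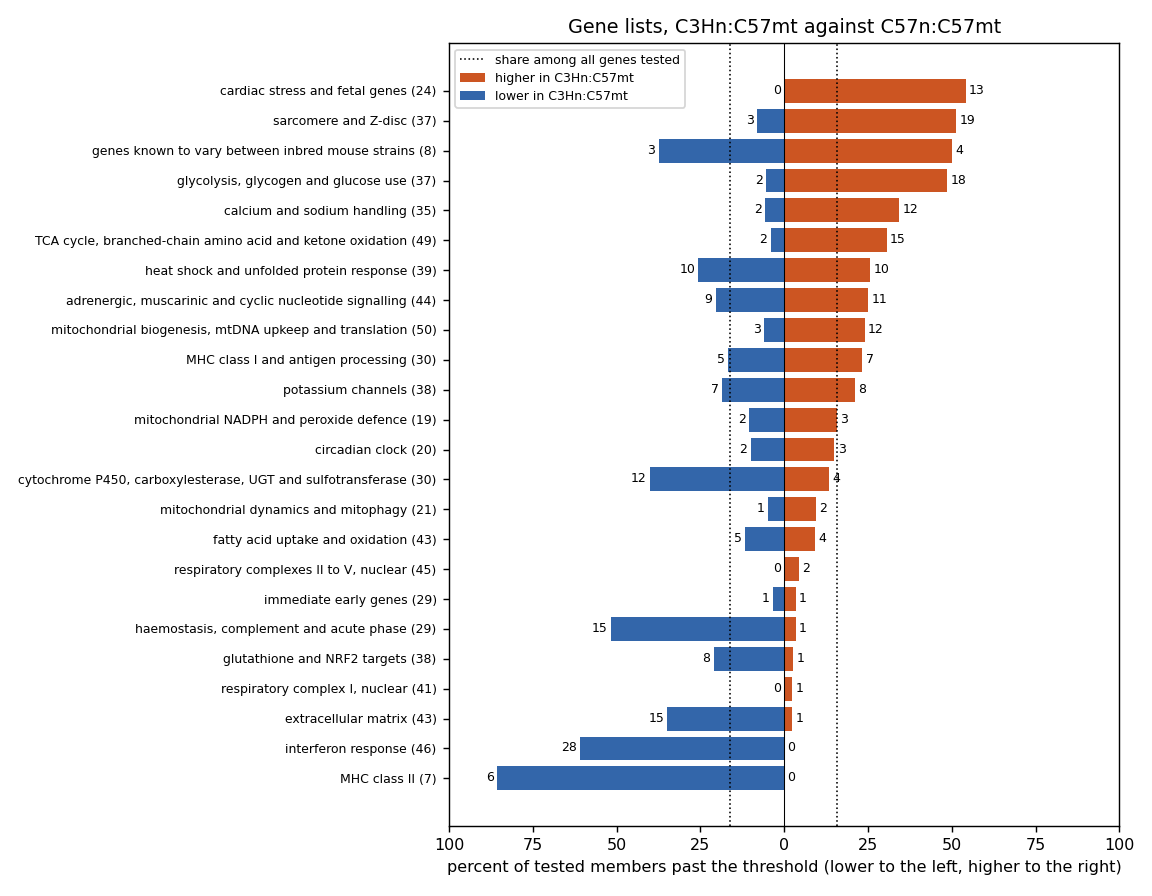
Share of each gene list's tested members (number in brackets) that passed an adjusted p of 0.05, higher in C3Hn:C57mt to the right and lower to the left, with the number of genes beside each bar. Dotted lines mark the shares among all genes tested, 15.9% higher and 16.0% lower. Stress and fetal, sarcomere and glycolysis genes lie at the top, and MHC class II and interferon genes at the bottom.

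Genes that handle glucose were more often higher than lower. In the list of glycolysis, glycogen and glucose use 18 of 37 tested members were higher (48.6%) and 2 lower, with a median of 0.32. Hk1, a hexokinase, had 211 to 299.5 CPM (median 256) in C3Hn:C57mt and 149 to 175 CPM (median 153) in C57n:C57mt. No library overlapped (0.70 ± 0.09, adjusted p = 8.2e-07). Gapdh, the glyceraldehyde phosphate dehydrogenase often used as a reference gene, had 2949 to 3914 CPM (median 3100.1) in C3Hn:C57mt and 1656 to 2675 CPM (median 2113) in C57n:C57mt (0.61 ± 0.11). Pygb, the brain form of glycogen phosphorylase, had 1205 to 1534 CPM (median 1307) in C3Hn:C57mt and 696 to 952 CPM (median 869) in C57n:C57mt (0.63 ± 0.10), and Phka1, a regulatory subunit of the kinase that switches phosphorylase on, had 74.0 to 94.2 CPM (median 79.2) in C3Hn:C57mt and 31.3 to 52.2 CPM (median 46.6) in C57n:C57mt (0.84 ± 0.12). These 3 were separate as well, whereas Gaa, the lysosomal enzyme that breaks down glycogen, was lower at 111 to 136 CPM (median 126) in C3Hn:C57mt and 149 to 235 CPM (median 213) in C57n:C57mt (-0.67 ± 0.11). With C3H mitochondria 7 members of the list were higher and 3 lower. Pygb (log2 fold change 0.19, adjusted p = 0.2) and Phka1 (0.22, 0.21) did not pass there, and with the L code as a covariate 5 members were higher and 1 lower.

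For the TCA cycle and branched-chain amino acid and ketone oxidation, 15 of 49 members were higher (30.6%) and 2 lower, with a median of 0.24. With C3H mitochondria 4 were higher and 4 lower (median 0.03), and with the L code as a covariate 2 were higher and 1 lower. Bdh1, the mitochondrial enzyme that interconverts the ketone bodies, had 289.9 to 382 CPM (median 327) in C3Hn:C57mt and 65.1 to 146 CPM (median 116) in C57n:C57mt. The groups were far apart, at 1.51 ± 0.15 (adjusted p = 1.7e-08), and 0.92 ± 0.15 with C3H mitochondria. Bcat2, the mitochondrial aminotransferase that starts branched-chain amino acid breakdown, had 163 to 229.8 CPM (median 186) in C3Hn:C57mt and 61.0 to 130.0 CPM (median 89.5) in C57n:C57mt (0.99 ± 0.16). Ogdh, a subunit of the 2-oxoglutarate dehydrogenase complex, had 2869 to 3795 CPM (median 3519) in C3Hn:C57mt and 1737 to 2613 CPM (median 2344) in C57n:C57mt (0.62 ± 0.13), and Mut, the methylmalonyl-CoA mutase, had 124 to 175 CPM (median 168) in C3Hn:C57mt and 72.2 to 114 CPM (median 104) in C57n:C57mt (0.66 ± 0.12). None of these overlapped, yet neither Ogdh (0.09, adjusted p = 0.68) nor Mut (0.30, 0.091) passed with C3H mitochondria.

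Fatty acid genes were split. Of 43 tested, 4 were higher and 5 lower, shares below those of all genes. The lower ones included Lpl, the lipoprotein lipase that frees fatty acids at the capillary wall, at 2871 to 3959 CPM (median 3444) in C3Hn:C57mt and 4101 to 5914 CPM (median 5450.1) in C57n:C57mt (-0.58 ± 0.16), Dgat2, which makes triglyceride, at 230.4 to 321 CPM (median 266) in C3Hn:C57mt and 334 to 499 CPM (median 391) in C57n:C57mt (-0.58 ± 0.11), and Acot1, a cytosolic acyl-CoA thioesterase, at 4.14 to 7.30 CPM (median 6.01) in C3Hn:C57mt and 11.8 to 17.6 CPM (median 13.3) in C57n:C57mt (-1.28 ± 0.17). Their groups did not overlap. Among the higher ones, Hadh, a dehydrogenase of beta oxidation, overlapped at 629 to 788 CPM (median 716) in C3Hn:C57mt and 385 to 647 CPM (median 522) in C57n:C57mt (0.47 ± 0.12), and Dgat1, the other enzyme of triglyceride synthesis, did not, at 20.4 to 29.8 CPM (median 22.8) in C3Hn:C57mt and 16.6 to 19.2 CPM (median 18.1) in C57n:C57mt (0.37 ± 0.08). The count of higher members rose to 9 without library 2 of C57n:C57mt and to 7 without library 5, and that of lower members to 9 without library 3.

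The nuclear-encoded respiratory chain showed few calls. For complex I, 1 of 41 members passed, Ndufa12, at 125 to 198 CPM (median 149) in C3Hn:C57mt and 73.5 to 166 CPM (median 103) in C57n:C57mt (0.46 ± 0.17, adjusted p = 0.038). For complexes II to V, 2 of 45 passed, Sdhc, a membrane anchor of succinate dehydrogenase, at 359 to 487 CPM (median 398) in C3Hn:C57mt and 226 to 395 CPM (median 263) in C57n:C57mt (0.54 ± 0.13), and Atp5g1, a ring subunit of ATP synthase, at 435 to 656 CPM (median 531) in C3Hn:C57mt and 325 to 522 CPM (median 387) in C57n:C57mt (0.40 ± 0.12). In all 3 genes the groups overlapped. Medians of both lists were slightly above that of all genes, at 0.11 and 0.13. Without library 2 of C57n:C57mt, 10 members of each list were higher, and without library 1, 4 of each. For complex I it was 0 without any 1 of libraries 16, 17 and 18 of C3Hn:C57mt and 3, 4, 5 and 6 of C57n:C57mt, so single libraries moved these counts in both directions. The list of mitochondrial biogenesis, mtDNA upkeep and translation had 12 of 50 members higher (24%) and 3 lower (6%). Among all genes the shares were 15.9% and 16.0%, and without library 17 of C3Hn:C57mt 7 members were higher. With the L code as a covariate 2 were higher and 0 lower. Polrmt, the mitochondrial RNA polymerase, had 26.4 to 40.9 CPM (median 35.4) in C3Hn:C57mt and 21.7 to 27.2 CPM (median 24.9) in C57n:C57mt (0.49 ± 0.10), and Gfm2, a mitochondrial translation factor, had 80.7 to 91.5 CPM (median 87.9) in C3Hn:C57mt and 55.7 to 75.7 CPM (median 65.0) in C57n:C57mt (0.42 ± 0.09). Mrpl3, a protein of the large mitochondrial ribosomal subunit, was lower at 40.1 to 59.1 CPM (median 47.1) in C3Hn:C57mt and 51.2 to 83.8 CPM (median 64.9) in C57n:C57mt (-0.48 ± 0.12) and was also lower with C3H mitochondria (-0.45 ± 0.12). Of the genes of mitochondrial dynamics and mitophagy 2 of 21 members were higher (9.52%) and 1 lower (4.76%), shares below those of all genes. The lower one was Bnip3l, a mitophagy receptor, at the edge of the threshold (-0.17 ± 0.07, adjusted p = 0.04996), and 8 of the 12 fits without 1 library did not call it. The higher ones were Park2, parkin, a ubiquitin ligase of mitophagy, at 13.7 to 18.4 CPM (median 15.7) in C3Hn:C57mt and 3.92 to 5.34 CPM (median 4.29) in C57n:C57mt (1.83 ± 0.11), and Afg3l2, a protease subunit of the inner membrane, at 271 to 295 CPM (median 287) in C3Hn:C57mt and 155 to 180.0 CPM (median 171) in C57n:C57mt (0.75 ± 0.08). Neither pair of groups overlapped, and both genes were also higher with C3H mitochondria (1.39 ± 0.10 and 0.57 ± 0.08).

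The genes of the mitochondrial DNA, which both groups carried in the C57 form, did not pass. Cytb, cytochrome b, had 18461 to 69971 CPM (median 26612) in C3Hn:C57mt and 29704 to 46598 CPM (median 36003) in C57n:C57mt, Cox2, a core subunit of cytochrome c oxidase, had 17116 to 62044 CPM (median 23603) in C3Hn:C57mt and 28206 to 39138 CPM (median 34209) in C57n:C57mt, and Atpase6, a subunit of ATP synthase, had 16540.0 to 66551 CPM (median 23354) in C3Hn:C57mt and 23743 to 33665 CPM (median 28589.7) in C57n:C57mt. Log2 fold changes were -0.19 ± 0.30, -0.20 ± 0.29 and 0.07 ± 0.32, with adjusted p of 0.66, 0.65 and 0.9. Library 15 of C3Hn:C57mt was the highest of the 12 in all 3 genes, and the 6 most abundant features took 41.6% of its counts, against 19.7% to 35.8% in the other 11. The sign of these genes changed with the L code as a covariate for Cytb and Cox2.

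Nnt, the proton-pumping transhydrogenase that makes mitochondrial NADPH, is the best known lesion of C57BL/6J, where several exons are deleted. Gene-level counts cannot separate deleted from kept exons. Nnt had 562 to 792 CPM (median 701.4) in C3Hn:C57mt and 399 to 519 CPM (median 499.8) in C57n:C57mt, and every C3Hn:C57mt library exceeded every C57n:C57mt library (0.53 ± 0.11, adjusted p = 5.4e-04). With C3H mitochondria the log2 fold change was 0.09 ± 0.11 (adjusted p = 0.63), between the wild-type sham strains 0.09 (adjusted p = 0.88), and with the L code as a covariate 0.36 (adjusted p = 0.31). The difference between the mitochondrial backgrounds was itself not past the threshold (0.44 ± 0.16, adjusted p = 0.16).

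Other genes known to vary between inbred strains differed in how far the groups lay apart. Of the 12 listed, 8 could be tested, and 4 were higher and 3 lower. Glo1, glyoxalase 1, whose copy number differs between strains, had 204 to 233 CPM (median 225) in C3Hn:C57mt and 73.5 to 107 CPM (median 89.6) in C57n:C57mt, without overlap (1.29 ± 0.10), and 1.25 ± 0.10 with C3H mitochondria. Wdfy1, named among the leading genes, had 30.7 to 35.6 CPM (median 34.7) in C3Hn:C57mt and 3.31 to 5.51 CPM (median 5.20) in C57n:C57mt. Ifi202b, an interferon-inducible DNA-binding protein, had 124 counts over the 6 C3Hn:C57mt libraries and 0 over the 6 C57n:C57mt libraries, so it was at least 37.2-fold higher against a floor of 3 counts over the group. Entpd4, a Golgi nucleotidase, had 129 to 153 CPM (median 134) in C3Hn:C57mt and 208 to 233 CPM (median 219) in C57n:C57mt, a lower level without overlap (-0.69 ± 0.06). Ide, the insulin-degrading enzyme, had 75.3 to 85.4 CPM (median 79.4) in C3Hn:C57mt and 66.3 to 150.1 CPM (median 108) in C57n:C57mt, with overlap (-0.46 ± 0.15, adjusted p = 0.019), and Gusb, beta-glucuronidase, had 9.66 to 12.5 CPM (median 11.0) in C3Hn:C57mt and 12.4 to 16.4 CPM (median 14.4) in C57n:C57mt (-0.42 ± 0.10). Gusb also overlapped. It did not pass with C3H mitochondria (0.10, adjusted p = 0.52), whereas Entpd4 and Ide did. Cox7a2l, an assembly factor of respiratory supercomplexes whose short form is found in C57, had 169 to 214 CPM (median 192) in C3Hn:C57mt and 134 to 197 CPM (median 158) in C57n:C57mt and did not pass (adjusted p = 0.11).

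Defence against peroxides and electrophiles was described by 2 lists. In that of mitochondrial NADPH and peroxide defence 3 of 19 members were higher (15.8%) and 2 lower (10.5%), no more than among all genes (15.9% and 16.0%). Ucp2, an inner membrane carrier, had 30.2 to 72.2 CPM (median 39.9) in C3Hn:C57mt and 13.9 to 25.6 CPM (median 19.2) in C57n:C57mt (1.15 ± 0.26), and Glrx2, the mitochondrial glutaredoxin, was lower at 8.24 to 12.0 CPM (median 9.43) in C3Hn:C57mt and 15.7 to 19.6 CPM (median 17.3) in C57n:C57mt (-0.84 ± 0.10) and lower again with C3H mitochondria (-0.78 ± 0.10). Mgst1, the lowest of the list, had 5.88 to 13.3 CPM (median 7.32) in C3Hn:C57mt and 28.3 to 60.4 CPM (median 35.2) in C57n:C57mt. Of 38 glutathione and NRF2 target genes 1 was higher, Pgd of the pentose phosphate pathway at 33.5 to 38.6 CPM (median 36.6) in C3Hn:C57mt and 20.1 to 26.6 CPM (median 23.0) in C57n:C57mt (0.63 ± 0.08), and 8 were lower (21.1%). The higher count was 6 without library 2 of C57n:C57mt, 4 without library 1 and 2 without library 15 of C3Hn:C57mt. Gstt1, a theta-class glutathione transferase, had 3.34 to 5.24 CPM (median 4.47) in C3Hn:C57mt and 5.49 to 12.1 CPM (median 6.24) in C57n:C57mt (-0.80 ± 0.18), and Gstm6, of the mu class, had 0.187 to 0.567 CPM (median 0.383) in C3Hn:C57mt and 0.569 to 1.96 CPM (median 1.25) in C57n:C57mt (-1.73 ± 0.28). Pgd, Gstt1 and Gstm6 did not overlap between the groups. Some transferases, such as those of the mu class, resemble one another, so the values of single members are uncertain. How far reads were shared among them was not tested.

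MHC class II genes were lower. These genes encode the paired chains that show peptides to helper T cells, and the DM proteins that load them. Their promoters share a module of boxes bound by RFX and NF-Y, on which the coactivator CIITA assembles. The Y box of that module holds a CCAAT core, which lies within GATTGG on the other strand. Capitals below mark every match to GATTGG on either strand, whether or not it is a Y box. The stretches are the 120 bases just before the start of 3 members that were lower and hold a match there. Their sequence is that of the reference strain C57BL/6J (RefSeq, build GRCm38.p6).
H2-Aa, chr17:34287824-34287943, minus strand: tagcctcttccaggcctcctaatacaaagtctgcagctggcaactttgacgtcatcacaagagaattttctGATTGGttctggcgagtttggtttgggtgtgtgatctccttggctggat
H2-Eb1, chr17:34305747-34305866, plus strand: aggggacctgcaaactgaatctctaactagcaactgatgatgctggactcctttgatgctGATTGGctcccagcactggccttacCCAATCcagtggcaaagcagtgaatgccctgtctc
H2-DMb1, chr17:34153071-34153190, plus strand: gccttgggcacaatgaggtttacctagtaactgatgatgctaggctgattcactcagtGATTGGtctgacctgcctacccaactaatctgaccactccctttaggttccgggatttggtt
The motif GATTGG, searched on both strands, began 49 bases before the start in H2-Aa, 60 and 35 in H2-Eb1 and 62 in H2-DMb1. Of 32851 promoter windows of 300 bases in the same table, 5292 (16.1%) held it, and 8 of 9 class II genes looked for had an entry. Of their 9 windows 8 held the motif. H2-DMa, also lower, has 2 windows, of which 1 lacked it and the other held it 199 bases before the start. A match describes these letters and shows no binding, and the C3H sequence was not analysed here.

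Of 7 class II genes tested, 6 were lower and 0 higher, with a median of -2.01. H2-Aa, a class II alpha chain, had 1.42 to 14.5 CPM (median 1.92) in C3Hn:C57mt and 14.3 to 28.0 CPM (median 22.7) in C57n:C57mt. H2-Ab1, its beta partner, had 0.514 to 9.76 CPM (median 1.01) in C3Hn:C57mt and 9.67 to 27.0 CPM (median 15.6) in C57n:C57mt, and H2-Eb1, the other beta chain, had 1.01 to 9.94 CPM (median 1.18) in C3Hn:C57mt and 12.0 to 22.4 CPM (median 19.0) in C57n:C57mt. Within C3Hn:C57mt, 5 libraries lay at or under 3.14 CPM in each of these genes, while library 18 stood at 14.5 CPM for H2-Aa, 9.76 CPM for H2-Ab1 and 9.94 CPM for H2-Eb1. It alone reached the C57n:C57mt range for H2-Aa and H2-Ab1, and the groups did not overlap for H2-Eb1. Log2 fold changes were -2.40 ± 0.39, -2.72 ± 0.45 and -2.70 ± 0.41 (adjusted p = 3.6e-05, 4.3e-05 and 1.4e-05), and without library 18 they were -3.44, -4.06 and -3.84. H2-DMa and H2-DMb1 form the peptide-loading protein. H2-DMa had 0.113 to 1.14 CPM (median 0.315) in C3Hn:C57mt and 1.09 to 2.20 CPM (median 1.57) in C57n:C57mt (-1.90 ± 0.34), and H2-DMb1 had a log2 fold change of -1.81 ± 0.43. Cd74, the invariant chain that escorts class II proteins, fell as well (-2.01 ± 0.41). The same 6 genes were lower with C3H mitochondria and with the L code as a covariate. MHC genes differ in sequence between these strains and resemble one another, so their counts against 1 reference are uncertain, and the part of this in the differences was not tested.

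Macrophages and other antigen-presenting cells are the usual source of class II RNA in heart. Of 9 macrophage markers tested, 8 were lower and 0 higher, among them Csf1r (-1.41 ± 0.23) and Cd163 (-1.55 ± 0.29). The list summed to 39.4 to 83.9 CPM in C3Hn:C57mt and 82.7 to 200 CPM in C57n:C57mt, and its mean log2 CPM fell by 1.08 (exact 2-sided permutation test, p = 0.0022, adjusted p = 0.013 over 12 marker lists), and that p is the smallest that 6 libraries against 6 can give. Library 18, high in class II genes, was the highest of C3Hn:C57mt in this sum, at 83.9 CPM against 72.7 CPM in library 13. With C3H mitochondria, where the same class II genes were lower, 1 macrophage marker was higher and 0 lower. The part of macrophages in the class II differences was not tested.

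**Figure D3:**
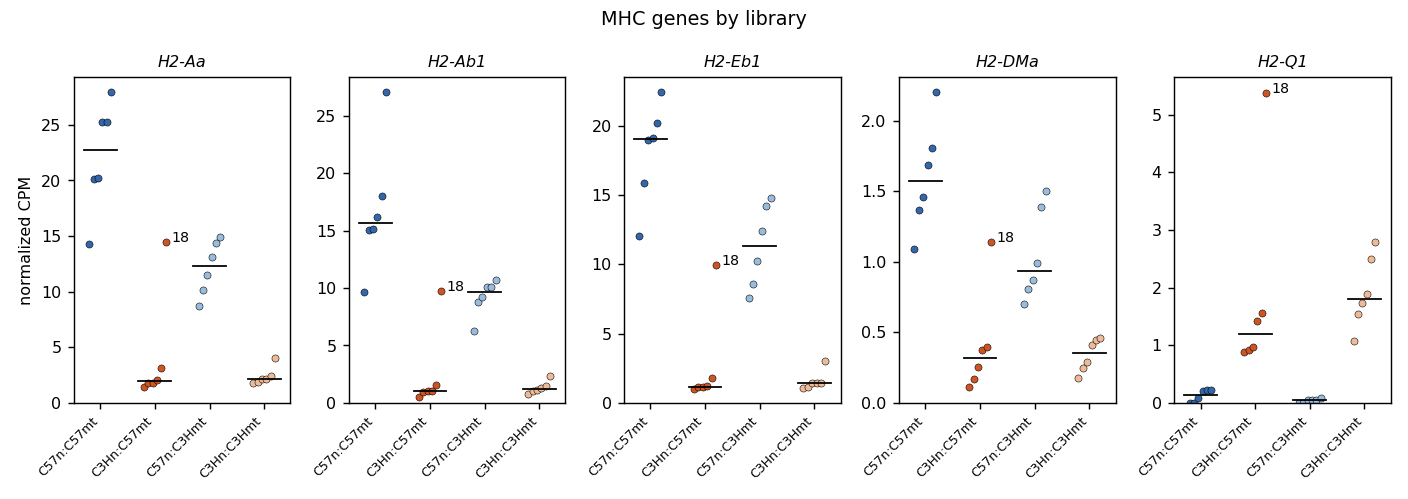
Normalized CPM of 4 MHC class II genes and of H2-Q1 in the 24 libraries, on linear axes. Points are libraries, bars the median of 6, and library 18 of C3Hn:C57mt is marked. It lies above the other 5 libraries of its group in each panel, at 14.5 CPM for H2-Aa and 5.38 CPM for H2-Q1.

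The class I and antigen processing list had 7 of 30 members higher (23.3%) and 5 lower (16.7%), against 15.9% and 16.0% of all genes. H2-Q1, a non-classical class I gene, had 0.876 to 5.38 CPM (median 1.19) in C3Hn:C57mt and 0 to 0.230 CPM (median 0.144) in C57n:C57mt, without overlap (3.84 ± 0.55), although its sign changed with the L code as a covariate (-0.34). H2-Q2 had 0.292 to 5.11 CPM (median 0.856) in C3Hn:C57mt and 0 to 0.114 CPM (median 0.0393) in C57n:C57mt, also without overlap (5.15 ± 0.77). Library 18 was the highest in both. H2-D1, a classical class I gene, was lower (-1.24 ± 0.36), as was Pdia3, a chaperone of class I loading, at 93.3 to 109.6 CPM (median 100.3) in C3Hn:C57mt and 124 to 179 CPM (median 137) in C57n:C57mt (-0.49 ± 0.09). Without library 18, 13 members were lower. The class I genes are close copies of one another, so the reads of each member are uncertain.

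Interferon-induced genes, which cells switch on against viruses, were lower as a list: 28 of 46 members (60.9%, against 16.0% of all genes) were lower and 0 higher, with a median of -0.72. Cxcl9, a chemokine for T cells, had 0.112 to 0.794 CPM (median 0.371) in C3Hn:C57mt and 3.37 to 5.45 CPM (median 4.03) in C57n:C57mt. The groups were separate (-3.49 ± 0.33, adjusted p = 6.8e-09). Rsad2, viperin, had 1.71 to 3.91 CPM (median 3.07) in C3Hn:C57mt and 7.75 to 19.7 CPM (median 10.2) in C57n:C57mt (-1.93 ± 0.26), and Gbp2, a guanylate-binding protein, had 4.63 to 7.66 CPM (median 5.61) in C3Hn:C57mt and 8.76 to 18.4 CPM (median 15.9) in C57n:C57mt (-1.35 ± 0.19). Mnda, at 0.449 to 1.31 CPM (median 0.780) in C3Hn:C57mt and 1.16 to 3.00 CPM (median 2.03) in C57n:C57mt, overlapped (-1.31 ± 0.24). Among the regulators, Stat2 (-0.61 ± 0.15), Irf1 (-0.68 ± 0.21) and Irf7 (-0.94 ± 0.28) were lower, and among the RNA sensors Ddx58 (-0.74 ± 0.16) and Ifih1 (-0.59 ± 0.17). Between 23 and 31 members were lower, and 0 higher, when any 1 of the 12 libraries was omitted. With C3H mitochondria 4 members were lower and 2 higher with a median of 0.04, with the L code as a covariate 2 were lower and 0 higher, and within code L2 7 were lower and 3 higher. Between the wild-type sham strains 0 of 45 tested members were lower and 1 higher, with a median of 0.51. Cxcl9 and Rsad2 were lower with C3H mitochondria too (-2.66 ± 0.34 and -1.73 ± 0.26). The macrophage sum above moved with this list, and its part was not tested.

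Complement and haemostasis genes were lower in the same libraries. Of 29 tested, 15 were lower (51.7%) and 1 higher, with a median of -0.93, and 0 were higher in 7 of the 12 fits without 1 library. C3, the central complement component, had 38.9 to 72.2 CPM (median 49.4) in C3Hn:C57mt and 107 to 634 CPM (median 198) in C57n:C57mt. Its groups were separate, with a wide spread in C57n:C57mt (-2.48 ± 0.37). C4b had 1.07 to 3.76 CPM (median 1.65) in C3Hn:C57mt and 8.44 to 25.7 CPM (median 11.2) in C57n:C57mt (-2.92 ± 0.42), and C2, the protease with which C4 forms the C3 convertase, had 1.17 to 2.71 CPM (median 1.39) in C3Hn:C57mt and 3.21 to 21.0 CPM (median 6.10) in C57n:C57mt (-2.65 ± 0.47). Neither overlapped. Plat, the tissue plasminogen activator, had 3.45 to 7.64 CPM (median 5.65) in C3Hn:C57mt and 6.47 to 15.1 CPM (median 13.3) in C57n:C57mt with overlap (-1.15 ± 0.22). C1qa, C1qb and C1qc, made by macrophages, fell by 0.97 to 1.26 on the log2 scale. With C3H mitochondria 2 members were lower and 3 higher, and with the L code as a covariate 3 were lower and 0 higher. C4b passed in each of these fits and between the wild-type sham strains (-1.99, adjusted p = 0.0026).

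Matrix genes followed: 15 of 43 were lower (34.9%) and 1 higher, with a median of -0.43. Fbln1, a glycoprotein of basement membranes and elastic fibres, had 18.9 to 31.8 CPM (median 28.0) in C3Hn:C57mt and 56.99 to 91.1 CPM (median 72.2) in C57n:C57mt without overlap (-1.43 ± 0.15). Timp4, an inhibitor of metalloproteinases with high levels in heart, had 2.35 to 4.24 CPM (median 3.28) in C3Hn:C57mt and 6.79 to 17.1 CPM (median 10.2) in C57n:C57mt (-1.72 ± 0.34), and Fbln5, of elastic fibres, overlapped at 3.45 to 6.88 CPM (median 5.26) in C3Hn:C57mt and 6.11 to 14.5 CPM (median 10.8) in C57n:C57mt (-1.01 ± 0.21). The higher gene was Thbs4, a thrombospondin, at 5.39 to 6.77 CPM (median 6.07) in C3Hn:C57mt and 0.922 to 1.71 CPM (median 1.22) in C57n:C57mt (2.27 ± 0.15). Fbln1, Timp4 and Thbs4 passed in the same direction with C3H mitochondria (-0.76 ± 0.15, -1.75 ± 0.35 and 1.59 ± 0.15). The list as such did not keep its direction there, with 12 members higher, 2 lower and a median of 0.47, and with the L code as a covariate 1 was higher and 1 lower. Among the C3Hn:C3Hmt libraries, library 23 had a sum of fibroblast markers of 1290 CPM, against 415 to 680 CPM in the rest. Its part in the direction of the list with C3H mitochondria was not tested. For Fbln5 the test of the difference between mitochondrial backgrounds gave -1.22 ± 0.30 (adjusted p = 0.084).

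Markers of some non-muscle cells moved with these lists. Of the 5 mesothelial markers all 5 were lower, and the list mean fell by 1.84 on the log2 scale (exact 2-sided permutation test, p = 0.0022, adjusted p = 0.013). Libraries 1 and 2 of C57n:C57mt carried most of that sum, at 208 and 171 CPM. Of 10 fibroblast markers 3 were lower and 0 higher, with sums of 308 to 593 CPM in C3Hn:C57mt and 465 to 990 CPM in C57n:C57mt. Of 10 endothelial markers 4 were lower, with sums of 460 to 654 CPM and 455 to 1196 CPM. That count was 2 without library 14 or 17 of C3Hn:C57mt or library 3 of C57n:C57mt, and 10 without library 5 of C57n:C57mt. Of 8 smooth muscle and pericyte markers 2 were higher and 3 lower, or 1 lower without library 3 of C57n:C57mt, and of 10 cardiomyocyte markers 2 were higher and 0 lower, with 0 higher without library 18 of C3Hn:C57mt or library 3 or 6 of C57n:C57mt. In the exact permutation test the means of the fibroblast and endothelial lists did not pass (adjusted p = 0.078 for each). Nor did that of the smooth muscle and pericyte list (adjusted p = 0.68). No marker found in the file was at 0 in all 12 libraries. With C3H mitochondria no list mean differed between the nuclei past an adjusted p of 0.05. There library 23 of C3Hn:C3Hmt stood above the rest of its group in the fibroblast sum. It also did so in the macrophage sum (195 CPM against 55.3 to 87.2 CPM) and the mesothelial sum (74.9 CPM against 16.3 to 34.4 CPM). How far such cells made up the matrix, complement and interferon differences was not tested.

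**Figure D4:**
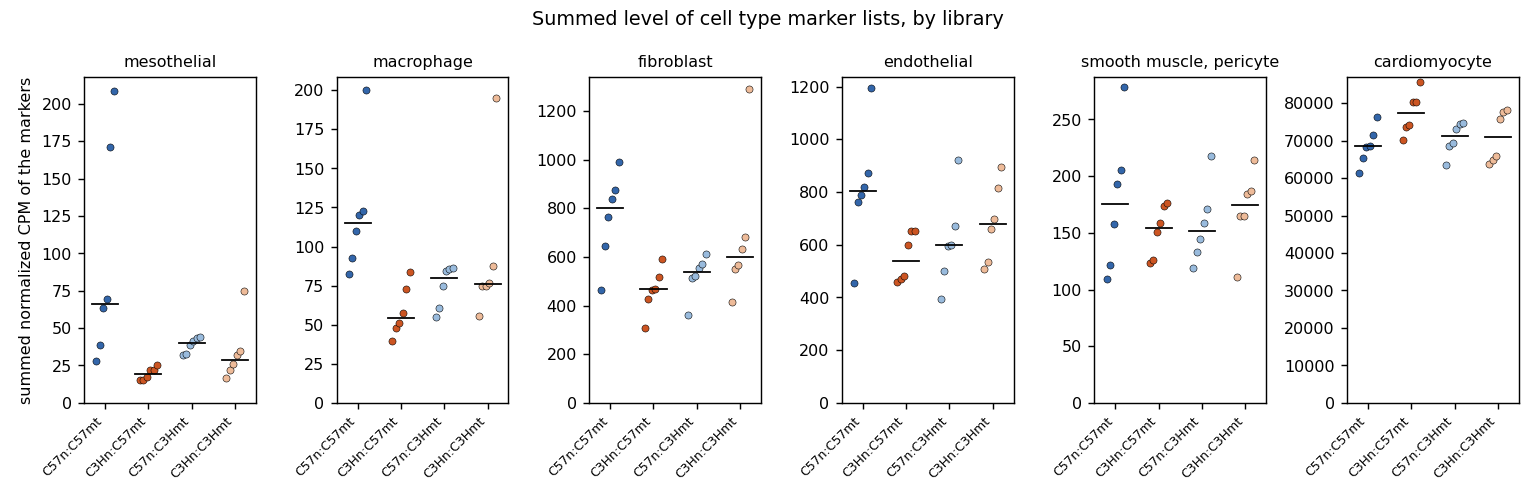
Summed normalized CPM of 6 marker lists in the 24 libraries, on linear axes from 0. Points are libraries and bars the median of 6. Mesothelial sums run from 15.1 to 25.2 CPM in C3Hn:C57mt and from 28.2 to 208 CPM in C57n:C57mt.

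Ion handling genes were called in both directions. In the list of calcium and sodium handling 12 of 35 members were higher (34.3%) and 2 lower, with a median of 0.28. With C3H mitochondria 5 were higher and 2 lower, and with the L code as a covariate also 5 and 2, where the median was -0.11. Of the lower ones Cacna1h, a T-type calcium channel, had 0.0735 to 0.501 CPM (median 0.305) in C3Hn:C57mt and 3.88 to 9.77 CPM (median 4.77) in C57n:C57mt. Its groups did not overlap, at -4.25 ± 0.32 (adjusted p = 5.4e-11), and it was also lower with C3H mitochondria (-3.61 ± 0.30). Camk2b, a calmodulin-dependent kinase, was higher at 29.6 to 35.5 CPM (median 32.1) in C3Hn:C57mt and 9.87 to 17.8 CPM (median 12.6) in C57n:C57mt, again without overlap (1.35 ± 0.11). Of 38 potassium channel genes 8 were higher (21.1%) and 7 lower (18.4%), shares near those of all genes (15.9% and 16.0%). Kcne1, the accessory subunit of the slow delayed rectifier, had 4.96 to 9.43 CPM (median 6.62) in C3Hn:C57mt and 1.93 to 3.42 CPM (median 3.01) in C57n:C57mt (1.27 ± 0.20). Kcnj11, the pore of the ATP-sensitive channel, was lower at 82.1 to 97.7 CPM (median 91.0) in C3Hn:C57mt and 134 to 178 CPM (median 165) in C57n:C57mt (-0.84 ± 0.08). Both were separate and passed in the same direction with C3H mitochondria (1.25 ± 0.20 and -1.17 ± 0.08).

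Of 44 genes of adrenergic, muscarinic and cyclic nucleotide signalling 11 were higher (25%) and 9 lower (20.5%). Among all genes the shares were 15.9% and 16.0%. Grk5, a kinase that desensitizes beta-adrenergic receptors, had 51.7 to 56.2 CPM (median 52.9) in C3Hn:C57mt and 13.5 to 21.8 CPM (median 18.7) in C57n:C57mt. The groups were far apart (1.60 ± 0.11, adjusted p = 9.4e-12). Arrb1, a beta-arrestin that binds phosphorylated receptors, was lower at 5.14 to 8.00 CPM (median 7.09) in C3Hn:C57mt and 13.5 to 18.1 CPM (median 14.8) in C57n:C57mt (-1.15 ± 0.13). Rgs6, which speeds the shut-off of inhibitory G proteins, was lower at 2.09 to 3.26 CPM (median 2.43) in C3Hn:C57mt and 6.18 to 7.58 CPM (median 6.54) in C57n:C57mt (-1.39 ± 0.13), and Pde3b, a cyclic nucleotide phosphodiesterase, was lower at 0.747 to 1.30 CPM (median 0.822) in C3Hn:C57mt and 3.48 to 7.71 CPM (median 5.90) in C57n:C57mt (-2.59 ± 0.21). No pair overlapped, and all 4 passed in the same direction with C3H mitochondria. Among the receptors Adrb1, the main beta-adrenergic receptor of heart muscle, did not pass (0.14 ± 0.10, adjusted p = 0.28).

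Protein-folding genes moved in both directions. Of 39 heat shock and unfolded protein response genes 10 were higher and 10 lower (25.6% each, against 15.9% and 16.0% of all genes). Bag3, a co-chaperone of small heat shock proteins, had 297 to 392 CPM (median 356) in C3Hn:C57mt and 179 to 284 CPM (median 232) in C57n:C57mt (0.60 ± 0.11), and Hspb6, Hspb8, Hsph1 and Hsp90aa1, all cytosolic, were higher by 0.42 to 0.64 on the log2 scale. Ddit3 and Chac1, of the stress response itself, were also higher (0.40 ± 0.14 and 0.86 ± 0.33). The lower members included chaperones and foldases of the endoplasmic reticulum. Pdia6 had 55.7 to 69.0 CPM (median 60.1) in C3Hn:C57mt and 89.2 to 108 CPM (median 92.4) in C57n:C57mt (-0.63 ± 0.10), Calr, calreticulin, had 176 to 233 CPM (median 208) in C3Hn:C57mt and 266 to 352 CPM (median 285) in C57n:C57mt (-0.51 ± 0.10), and Hspa5, the BiP chaperone, had a log2 fold change of -0.49 ± 0.12. Pdia6, Calr and Bag3 did not overlap between the groups. Of the 10 lower members 8 were also lower with C3H mitochondria, and of the 10 higher members 0 passed there.

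Of 30 cytochrome P450 genes and other enzymes of foreign compounds 12 were lower (40%) and 4 higher. Ces1d, a carboxylesterase that also cleaves stored triglyceride, had 105 to 154 CPM (median 109) in C3Hn:C57mt and 185 to 261 CPM (median 219) in C57n:C57mt (-0.90 ± 0.12), and Akr1e1, an aldo-keto reductase, had 4.38 to 5.88 CPM (median 5.11) in C3Hn:C57mt and 11.9 to 18.4 CPM (median 13.6) in C57n:C57mt (-1.49 ± 0.17). Cyp4f13 had 0.964 to 1.47 CPM (median 1.01) in C3Hn:C57mt and 2.67 to 3.66 CPM (median 2.77) in C57n:C57mt (-1.45 ± 0.17), and Cyp1a1, the classical target of the aryl hydrocarbon receptor, was near the detection limit with the C3H nucleus, at 0 to 0.138 CPM (median 0.0209) in C3Hn:C57mt and 0.875 to 5.41 CPM (median 1.46) in C57n:C57mt. None of these overlapped. Of 20 circadian genes 3 were higher and 2 lower, shares below those of all genes, and 5 were higher without library 5 or 6 of C57n:C57mt. The higher ones included Bhlhe40 at 69.1 to 103 CPM (median 88.2) in C3Hn:C57mt and 39.3 to 66.7 CPM (median 48.9) in C57n:C57mt (0.73 ± 0.14), and Cry2 at 27.7 to 52.6 CPM (median 34.8) in C3Hn:C57mt and 19.3 to 38.3 CPM (median 23.6) in C57n:C57mt (0.50 ± 0.17). Cry2 changed sign within code L2 (-0.17). Of 29 immediate early genes 1 was higher, Nr4a3 at 2.92 to 12.7 CPM (median 5.21) in C3Hn:C57mt and 0.729 to 2.47 CPM (median 1.52) in C57n:C57mt (1.97 ± 0.48), and 1 lower, Fosb at 1.65 to 7.16 CPM (median 4.59) in C3Hn:C57mt and 3.41 to 20.5 CPM (median 11.6) in C57n:C57mt (-1.40 ± 0.40), shares below those of all genes. Within code L2 Fosb changed sign (0.25).

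Among genes with many counts that changed by at least 0.5 on the log2 scale, 15 higher and 15 lower ones were followed. The higher ones held Dsp, desmoplakin of the desmosome, at 1483 to 1868 CPM (median 1712) in C3Hn:C57mt and 784 to 1414 CPM (median 1173) in C57n:C57mt (0.57 ± 0.12), Zfp106, an RNA-binding zinc finger protein, at 1288 to 1486 CPM (median 1355) in C3Hn:C57mt and 582 to 1073 CPM (median 918) in C57n:C57mt (0.67 ± 0.12), and Pam, a peptide-amidating enzyme abundant in atrial granules, at 978 to 1104 CPM (median 1042) in C3Hn:C57mt and 516 to 815 CPM (median 751) in C57n:C57mt (0.59 ± 0.10). In none of these 3 did the groups overlap. The lower ones held Bcam, a laminin receptor, at 136 to 167 CPM (median 140.4) in C3Hn:C57mt and 259 to 316 CPM (median 291) in C57n:C57mt (-1.004 ± 0.073), Corin, the protease that activates atrial natriuretic peptide, at 100.2 to 149.7 CPM (median 115) in C3Hn:C57mt and 164 to 346 CPM (median 285) in C57n:C57mt (-1.10 ± 0.20), Clu, clusterin, at 413 to 615 CPM (median 514) in C3Hn:C57mt and 699 to 858 CPM (median 771) in C57n:C57mt (-0.58 ± 0.11), and Aqp1, a water channel of capillaries, at 102 to 139 CPM (median 117) in C3Hn:C57mt and 154 to 340.2 CPM (median 277) in C57n:C57mt (-1.16 ± 0.18). These 4 were separate. Sspn, sarcospan, had 181 to 233 CPM (median 205) in C3Hn:C57mt and 201 to 378 CPM (median 323) in C57n:C57mt (-0.54 ± 0.13), with overlap. Fabp4, of capillary endothelium, had 129 to 198 CPM (median 174) in C3Hn:C57mt and 153 to 336 CPM (median 249) in C57n:C57mt (-0.55 ± 0.19, adjusted p = 0.027). The sign of Fabp4 turned with the L code as a covariate (0.14) and within code L2 (0.19), and its call was lost without library 14 or 17 of C3Hn:C57mt or library 1 or 3 of C57n:C57mt. Gsn, gelsolin, had 132 to 278 CPM (median 229) in C3Hn:C57mt and 239.9 to 525 CPM (median 408) in C57n:C57mt (-0.84 ± 0.20). Of the 15 lower genes 12 passed in the same direction with C3H mitochondria, and of the 15 higher genes 6 did.

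The same nuclear contrast was then read with C3H mitochondria in both groups. There 2599 of 13395 genes passed (19.4%), 1423 higher (10.6%) and 1176 lower (8.78%) with the C3H nucleus. Both contrasts called 1866 genes in the same direction, which was 43.7% of the genes called with C57 mitochondria and 71.8% of those called with C3H mitochondria. They called 8 genes in opposite directions (Cfp, Dpt, Fam111a, Folr2, Pde1b, Prim1, Rcn3 and Stab1), each lower with C57 and higher with C3H mitochondria, and named after their values were seen. The part of library 23 of C3Hn:C3Hmt, high in fibroblast and macrophage markers, in these 8 was not tested. Across genes, which are not independent replicates, the log2 fold changes of the 2 contrasts had Pearson's r = 0.84 and Spearman's rho = 0.52. Among genes changed by at least 1 in the main contrast, 383 of the 417 higher (91.8%) and 318 of the 713 lower (44.6%) passed in the same direction with C3H mitochondria. The 2 contrasts share no library.

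**Figure D5:**
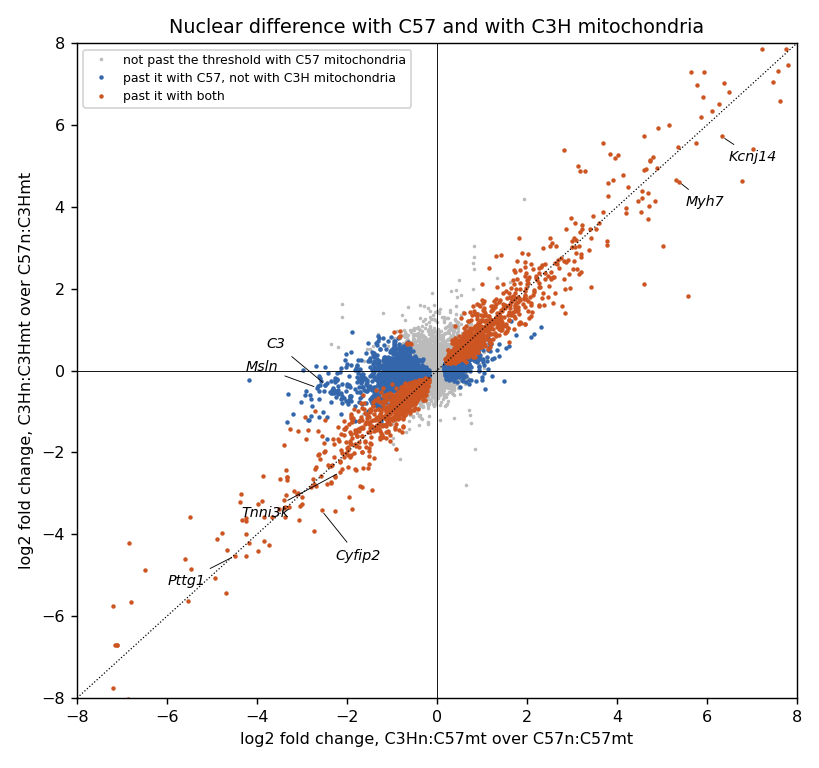
Log2 fold change of the C3H over the C57 nucleus with C57 mitochondria (horizontal) and with C3H mitochondria (vertical), 1 point per gene, with 22 of 13395 genes outside the axes. The dotted line marks equal change. Of the 417 genes higher by at least 1 on the horizontal axis 383 were also called higher on the vertical one, while Msln and C3, lower on the horizontal axis, lie near 0 on the vertical one.

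Whether the nuclear difference itself depended on the mitochondria was tested as the difference of the 2 contrasts. In edgeR 0 of 13395 genes passed, with 2188 (16.3%) at an unadjusted p below 0.05, and DESeq2 called 318. The count rested on single libraries: it was 422 without library 5 of C57n:C57mt, at most 9 without any other, and 2 with the L code as a covariate, Frat2 and Klhl38. For C3 the difference of the log2 fold changes was -2.14 ± 0.50 (adjusted p = 0.082), for Rnase4 -1.63 ± 0.36 (0.082), and for Rn45s 0.98 ± 0.21 (0.082). For the leading gene Kcnj14 it was 0.61 ± 0.19 (0.13) and for Pttg1 0.04 ± 0.24 (0.97).

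Between the wild-type sham strains of the other set of titles, where nucleus and mitochondria both differ and each group has 3 libraries, 864 of 12977 genes passed (6.66%), 495 higher (3.81%) and 369 lower (2.84%). Of the 857 also tested in the main fit, 758 (88.4%) were called in the same direction with C57 mitochondria and 0 in the opposite one. Seen from the main contrast, these 758 were 18.5% of its 4088 called genes that were tested in the sham set. In that set Kcnj14 had 42.1 to 46.0 CPM in C3H_wt_sham and 0.585 to 0.797 CPM in C57_wt_sham. Myh7 had 1002 to 1051 CPM and 17.7 to 71.1 CPM, and Pttg1 had 0.755 to 1.28 CPM and 18.9 to 30.6 CPM. None of the 3 overlapped between those groups. Called in the same direction in all 3 contrasts were 406 higher and 295 lower genes, and with a log2 fold change of at least 1 in each of them 231 higher and 143 lower. Most list patterns were not seen between the sham strains. Sarcomere genes had 3 higher and 3 lower (median -0.01), glycolysis genes 2 and 2 (-0.02), and TCA genes 1 and 1 (-0.17). Stress and fetal genes had 4 higher and 0 lower (0.23), and class II genes 0 higher and 4 lower (-2.29).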

How the data were processed

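Poly(A) RNA of cardiomyocytes was sequenced with a stranded kit, per the labels' protocols. The deposited file holds the authors' expected counts per gene symbol (30743 rows), not normalized. Per the submitters' processing notes CASAVA 1.8.2, Bowtie, RSEM 1.2.0 and build mm9 were used, while the extract protocol in the labels names the provider's own mapper, so the mapper behind the table stays uncertain. The reference genome is that of C57BL/6J, and how many reads of C3H alleles were lost in mapping was not tested. Columns of other samples and rows without a gene name numbered 0. Coordinates are given only for the RefSeq promoter sequences (GRCm38.p6), not in the build of the counts.

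Expected counts (13.9% not whole) were rounded and fitted in R 4.3.3 with edgeR 4.0.16's quasi-likelihood test: TMM, edgeR's filter on low counts, group means over 24 libraries (4 groups of 6), Benjamini-Hochberg adjustment, threshold 0.05. The wild-type sham strains were fitted over 12 libraries of 4 groups. Standard errors are the fold change over the square root of F. Marker lists (12) were compared by mean log2 CPM with a prior count of 2, by an exact permutation test. Scripts were tested on simulated data. No 2 libraries of a group agreed within sampling noise (lowest chi-square per degree of freedom 7.51). Replicates are numbered libraries, so p-values measure the spread between them, which may be technical. Xist had 0 or 1 counts in each of the 12.

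The members and the 25 gene lists were chosen with earlier results of these data known. Named genes were the 12 per direction with the largest fold change among called, non-overlapping genes averaging at least 3 log2 CPM, skipping predicted, clone-type, RIKEN-type and pseudogene symbols, up to 4 called members of each list with the smallest adjusted p, 10 fixed genes and the strain-variable list, and the 15 per direction with most counts and a change of at least 0.5, with the same skips. Other members are named as examples chosen after their values were seen. Alternatives were DESeq2 1.42.0, its size factors, no filter, scaling without the 6 most abundant features and Rn45s, the L code, code L2 alone, the 12 libraries alone, and each library left out, the last also for the list counts, and a block by the D code of the titles. The list counts without a library and the block were chosen after seeing the data. A few genes that these rules or lists hold are counted but not reported here by name.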

Additional observations from a re-analysis of the deposited data

Results flagged for a closer look

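Within the 2 groups of 6 libraries, 290 sets of 6 values (genes reported here and library measures) were searched for a library far from the other 5, by Dixon's ratio of its gap to the range at its 95% critical value. Chance marks about 1 in 20 such sets, and 25 were marked, 17 in C3Hn:C57mt and 8 in C57n:C57mt. Several of these rest on the same library, so they are not independent.

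Library 18 of C3Hn:C57mt was the highest in 9 genes. In MHC class II the ratio was 0.868 for H2-Aa, 0.883 for H2-Ab1, 0.912 for H2-Eb1 and 0.722 for H2-DMa, with H2-Aa at 14.5 CPM against 3.14 CPM in the next library. In class I it was 0.85 for H2-Q1, 0.829 for H2-Q2 and 0.803 for H2-Bl, with H2-Q1 at 5.38 CPM against 1.55 CPM. Library 18 was also the highest for Mgst1 (0.681) and Ucp2 (0.646). The class II genes, lower with the C3H nucleus, and the 3 class I genes, higher with it, thus stood out upward in 1 library.

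Library 15 of C3Hn:C57mt was the highest for Cytb (0.687), Cox2 (0.683) and Atpase6 (0.66), at 70000 CPM for Cytb against 34600 CPM in the next library, and for Bcam (0.714) and Ces1d (0.725). Library 17 was the highest for Chm (0.846), and library 13 for C2 (0.638) and Pdlim3 (0.654).

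In C57n:C57mt, library 1 was the highest for Cyp1a1 (0.75), Nppa (0.629), the summed atrial markers (0.664) and the summed macrophage markers (0.661, at 200 CPM against 123 CPM), and the lowest for Mut (0.67). Library 3 was the highest for Pdia6 (0.799), library 6 for the summed erythrocyte markers (0.764), and library 5 the lowest for Plat (0.699).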

How the results depend on the processing

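The number of genes called with C57 mitochondria was 4272 and stayed within 1.5 times of this with DESeq2 (4794), DESeq2's size factors, no filter, scaling without the most abundant features, the 12 libraries alone (3668), the comparison within code L2 (3892) and each library left out (3646 to 4476). It was 1075 with the L code as a covariate and 1130 with a change of at least 1 on the log2 scale. With the L code, the count with C3H mitochondria was 1191 instead of 2599, that of genes called in both 589 instead of 1866, and that of the difference between backgrounds 2 instead of 0. DESeq2 gave 318 for the last, and leaving out 1 library 0 to 422, with 422 without library 5 of C57n:C57mt. Without 1 library the wild-type sham strains gave 566 (without library 485 of C3H_wt_sham) to 869 genes. The cause of these shifts was not tested.

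Of 136 named genes tested, the L code left 77 on their side of the threshold, 54 lost the call and 5 changed sign, at 0.99 for Cox2, 0.87 for Cytb, 0.14 for Fabp4, -0.34 for H2-Q1 and -0.41 for Myh6. Within code L2, 16 lost the call and 5 changed sign, at -0.27 for Atpase6, -0.17 for Cry2, 0.19 for Fabp4, 0.25 for Fosb and -0.20 for Myh6. In the fits without 1 library, Atpase6 ranged from -0.33 (without library 15) to 0.19 and Nppb from -0.014 (without library 13) to 0.23, neither of them past the threshold. The calls of Ndufa12 (adjusted p up to 0.10), Bnip3l (0.14), Fabp4 (0.083), Cry2 (0.083) and Ide (0.070) were among those lost in at least 1 of the 12 fits, Ide without library 4 of C57n:C57mt, and 3 named genes lost theirs in the fit of the 12 libraries alone.

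The groups compared share no replicate numbers, but each D code, a further unexplained part of the titles, holds 1 library of each nucleus. Over genes, libraries of 1 code did not deviate together in every pair (correlations of -0.222 to 0.296 with C57 mitochondria, where 1 of 6 libraries of C3Hn:C57mt correlated best with its own code, and of -0.177 to 0.239 with C3H mitochondria). With the code as a replicate block, chosen after seeing the data, 4159 genes passed with C57 mitochondria, 2463 with C3H mitochondria, 1759 in both and 143 in the difference between backgrounds, where the fit without the block gave 0. Of the named genes Bnip3l lost its call under the block (adjusted p = 0.12) and Atpase6 changed sign (-0.12). Class II and class I genes with under 1 CPM in a group, and any gene at 0, are limited by depth, since at 15.97 M counts 1 CPM is about 16 counts.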
